A study of Mus musculus with 9 samples.

Results

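The 10 genes described here encode enzymes of mitochondrial fatty acid beta-oxidation: Acadvl, Acadl, Acadm, Acads, Hadha, Hadhb, Acaa2, Etfa, Etfb and Etfdh. They were taken by name from the feature lists of 3 single-cell RNA libraries of mouse thymocytes, and all 10 were found among 31053 genes. The rule for the choice was gene names alone, but it was made with earlier results of these data known. Beta-oxidation shortens fatty acyl-CoA in the mitochondrial matrix by rounds of oxidation, hydration, oxidation and thiolytic cleavage, each of which releases acetyl-CoA. An acyl-CoA dehydrogenase matched to the chain length opens each round, the trifunctional protein (Hadha and Hadhb) and the thiolase Acaa2 carry out later steps, and electron transfer flavoprotein (Etfa and Etfb) with its oxidoreductase Etfdh hands the electrons to ubiquinone. The pathway is best known from heart, liver and brown fat, while in T cells it is mostly discussed in memory and regulatory subsets.

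The thymocytes compared here came from adult female mice, either I173A, with a substitution in CD3ε (part of the T cell receptor complex that passes its signal on), or wild-type (WT). The zygosity of the substitution and the number of mice are not given in the sources used here. Each genotype was marked with its own antibody hashtag, I173A with Hashtag 6 and WT with Hashtag 4, and cells were then sorted by surface markers into CD4 single-positive (CD4 SP), CD8 single-positive (CD8 SP) and CD4+CD8+ double-positive (DP) cells. DP cells are the earlier stage, from which SP cells are selected. Each gate was run as 1 library of 5′ RNA that mixed both genotypes, so a genotype in a gate is 1 sample. No difference below therefore has a replicate check, no test was run, and "higher" or "lower" is said of these samples only.

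The DP gate gave 2706 I173A and 2516 WT cells after filtering, the CD4 SP gate 2664 and 3109, and the CD8 SP gate 2872 and 3017. Depth, in unique molecular identifiers (UMIs, counts of original RNA molecules), was 8659807 in I173A and 10119851 in WT cells of the DP gate and ran from 16766444 to 22544044 in the SP groups. Levels are CPM, that is, UMIs of a gene scaled to all UMIs of its group as counts per 1000000. Ratios are I173A over WT with exact 95% intervals, which cover counting error only. The libraries shared 109 to 124 cell barcodes pairwise. Cd4 was at 394.2 CPM in I173A and 371.4 in WT CD4 SP cells, and at 0.964 and 3.99 CPM in CD8 SP of I173A and WT. Of markers of other cells, summed adipocyte genes stayed at or under 0.46 CPM in every group and erythroid genes at or under 6.28 CPM. Of 7 thymic epithelial markers 3 or 4 were detected, with a sum of 52.8 CPM in I173A and 46.1 CPM in WT DP cells and of 6.48 to 9.96 CPM in the SP groups. Krt5, Krt8 and Foxn1, which define these cells, had 0 UMIs in every group, which allows up to 0.346 CPM in I173A and 0.296 CPM in WT DP cells, the shallowest groups. Summed endothelial and fibroblast genes were at 104.6 CPM in I173A and 79.7 CPM in WT DP cells, and summed B cell genes at 61.1 and 37.9 CPM there. The part of these cells in the DP results was not tested. Summed macrophage and dendritic genes were at 364.9 CPM in I173A and 132.8 CPM in WT CD8 SP cells, and their part in the results for that gate was not tested. Proliferating cells differed more between the genotypes. Mki67, a marker of cycling cells, was at 249.5 CPM in I173A and 731.9 CPM in WT DP cells, at 165.7 and 287.7 CPM in CD8 SP, and at 58.3 and 61.9 CPM in CD4 SP. Each ratio was therefore also computed without 5 clusters high in cell cycle markers, which held 8.32% of I173A and 15.9% of WT CD8 SP cells, and 4.69% and 15.5% of DP cells.

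Taken as a group, the beta-oxidation genes had a modestly larger share of the RNA in I173A cells of every gate. Summed over the 10 genes, the level was 664.1 CPM in I173A and 575.2 CPM in WT CD4 SP cells, or 1.155-fold (1.125 to 1.185). For CD8 SP cells it was 666.2 CPM in I173A and 616.1 CPM in WT, or 1.081-fold (1.055 to 1.108). In DP cells it was 831.5 CPM in I173A and 734.3 CPM in WT, or 1.132-fold (1.096 to 1.170). All 3 intervals lie above 1. The ratios were 1.151, 1.118 and 1.102 without the cell cycle clusters.

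These are shares of RNA and not amounts per cell, and the I173A cells held fewer UMIs, with a median per cell of 2750.5 against 2906.5 in WT DP cells, 5271.5 against 5704 in the CD8 SP gate, and 5786.5 against 6079 in the CD4 SP gate. Counted per 100 cells, the 10 genes gave 418.0 UMIs in I173A and 379.9 in WT CD4 SP cells. The same count was 409.1 in I173A and 460.4 in WT CD8 SP cells, and 266.1 and 295.4 in DP cells. Over all cells the sum per cell was thus higher in I173A in the CD4 SP gate alone, while the sum in CPM was higher in all 3. With the cell cycle clusters left out, the sum per 100 cells was higher in I173A in all 3 gates, at 402.8 UMIs against 367.6 in WT CD4 SP cells, 365.4 against 339.1 in the CD8 SP gate and 242.0 against 215.9 in the DP gate.

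**Figure D1:**
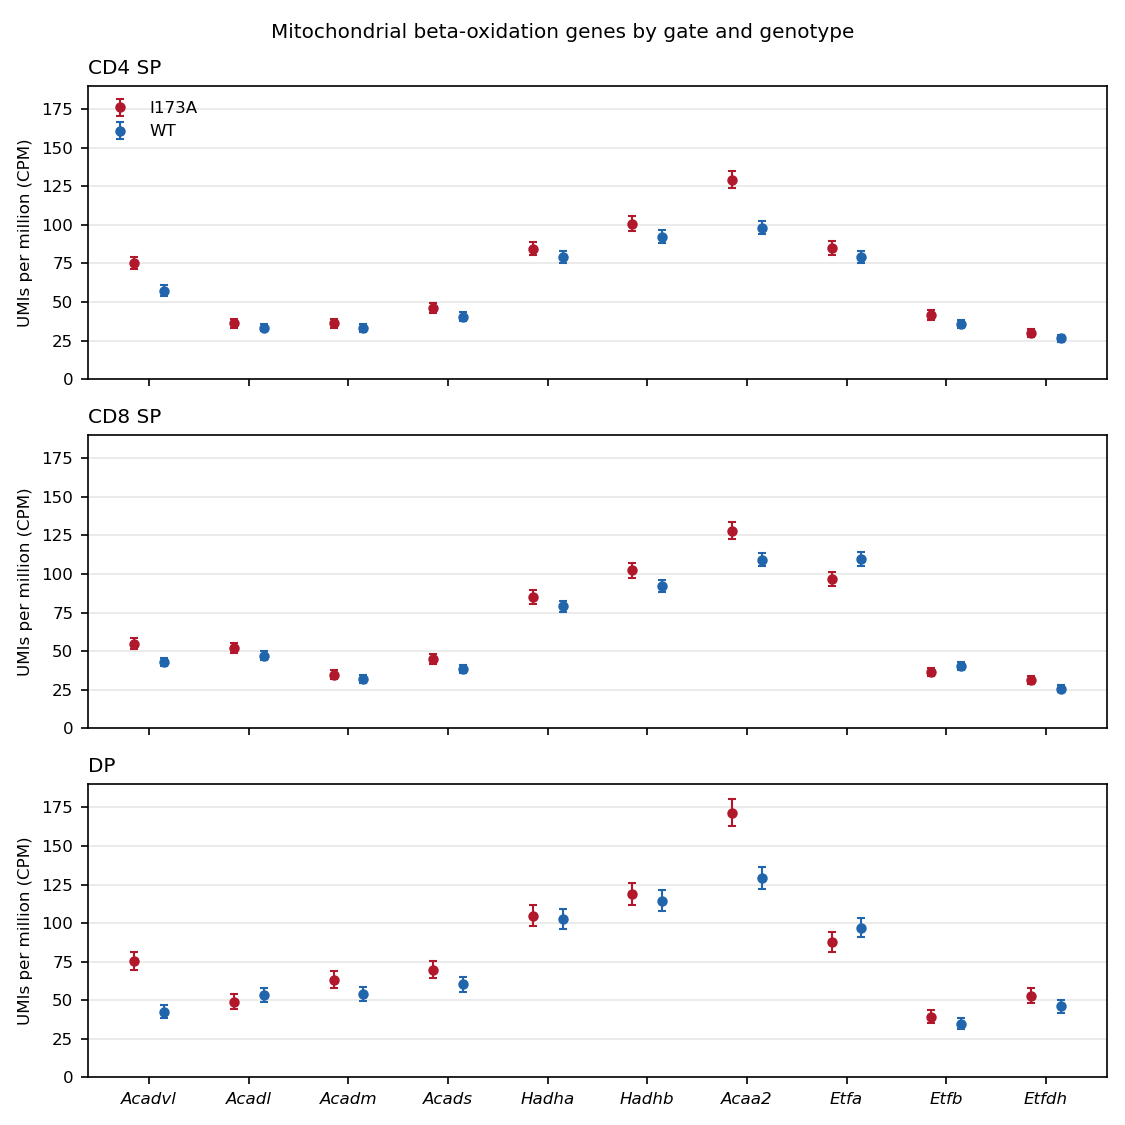
Levels of the 10 beta-oxidation genes in CPM for I173A and WT cells of each gate (1 sample per point), with exact Poisson 95% intervals. Acadvl and Acaa2 stand higher in I173A in each gate, while Etfa stands lower in I173A in CD8 SP and DP cells.

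A gene was counted as past the fold when its ratio was at most 0.8 or at least the inverse of 0.8, among genes with a mean of 5 CPM or more. In CD4 SP cells 2 of the 10 genes, Acadvl and Acaa2, were higher by that much, against 5.00% of the 9243 genes measured. In CD8 SP cells 1 of 10, Acadvl, was higher by that much, against 10.6% of 9123 genes. In DP cells Acadvl and Acaa2 again were, against 16.3% of 9448 genes. These shares are near the background in CD8 SP and DP cells. None of the 10 was lower by that fold in any gate, against 2.08%, 10.9% and 10.5% of all genes. Ratios above 1 by any amount were found for 10, 8 and 8 of the 10 genes in CD4 SP, CD8 SP and DP cells, against 61.9%, 55.3% and 62.7% of all genes. In DP cells they were found for 6 of 10 (Hadha and Hadhb changed side) when totals were rescaled to a median gene ratio of 1. The median log2 ratio of the 10 genes was 0.15, 0.15 and 0.18 in the 3 gates, beside 0.04, 0.03 and 0.08 over all genes.

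**Figure D2:**
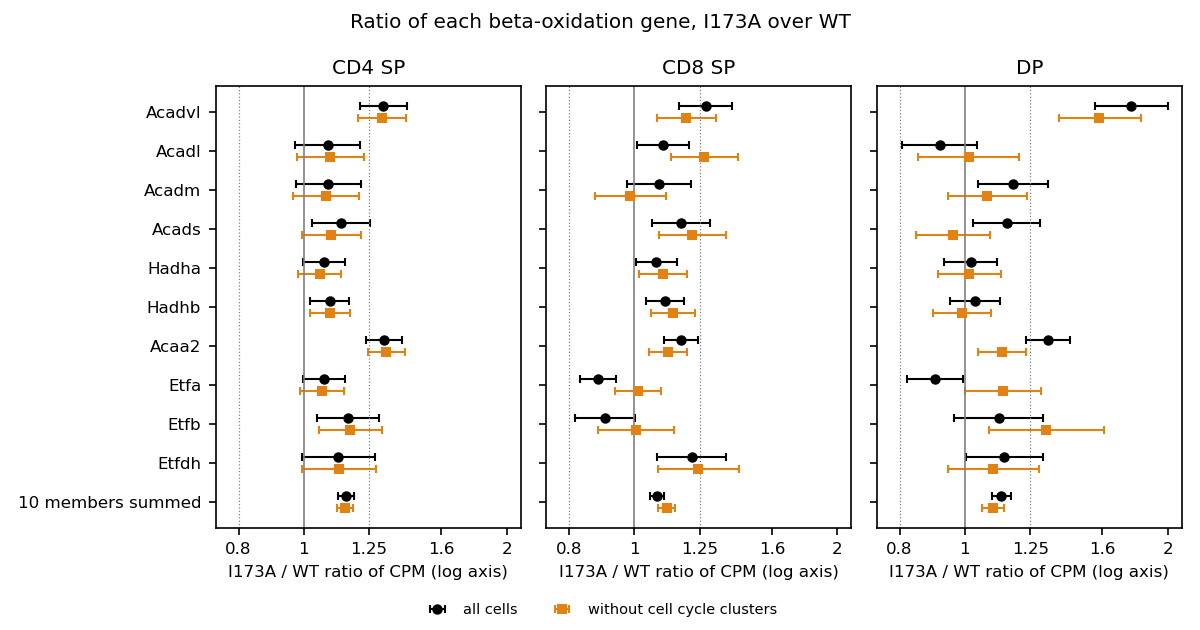
Ratio of CPM in I173A over WT on a log axis for each gene and for the 10 summed, by gate, over all cells (black) and without the cell cycle clusters (orange), with exact 95% intervals and dotted lines at the fold used for counting. Acadvl in DP cells lies furthest from 1, at 1.77 over all cells and 1.58 without the cell cycle clusters.

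Over all cells of each gate, Acadvl had the largest ratio of the first-step enzymes. It encodes the very-long-chain acyl-CoA dehydrogenase, which acts at the inner mitochondrial membrane on fatty acids just delivered by the carnitine shuttle. In DP cells it was at 75.4 CPM in I173A and 42.7 CPM in WT, in CD4 SP cells at 75.2 and 57.4 CPM, and in CD8 SP cells at 54.9 and 43.0 CPM. Its ratio was 1.77 (1.56 to 2.00) in DP, 1.28 (1.17 to 1.40) in CD8 SP and 1.31 (1.21 to 1.42) in CD4 SP cells, so I173A was higher in all 3 gates by more than counting error. Per 100 cells too it was higher in I173A, with 24.1 UMIs against 17.2 in WT DP cells, 33.7 against 32.2 in the CD8 SP gate and 47.3 against 37.9 in the CD4 SP gate. Without the cell cycle clusters the ratio was 1.58 in DP (81.7 CPM in I173A and 51.6 CPM in WT), 1.30 in CD4 SP and 1.19 in CD8 SP cells, the last short of the fold used for counting.

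The promoter of Acadvl is shown because this gene had the highest ratio of the 10 in DP and CD8 SP cells. The window runs from 250 bases before to 50 bases after the RefSeq start on GRCm38.p6, chr11:70015379-70015678 on the minus strand, and the gene itself lies on chromosome 11 from 70010183 to 70015428. Its AGGTCA, the hexamer that many nuclear receptors bind, lies 87 bases before the start and is in capitals.
Acadvl: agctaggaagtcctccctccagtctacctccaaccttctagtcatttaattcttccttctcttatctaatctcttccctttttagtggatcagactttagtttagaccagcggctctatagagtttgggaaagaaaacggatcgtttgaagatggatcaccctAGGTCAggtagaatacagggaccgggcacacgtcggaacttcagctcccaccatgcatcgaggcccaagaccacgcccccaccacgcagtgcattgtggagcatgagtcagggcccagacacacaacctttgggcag
Windows of 9 of the 10 genes, all but Acaa2, are described here, taken by symbol from RefSeq. Of these 9, AGGTCA was found on either strand in Acadvl and Acadm, against 16.3% of 32851 promoters of the same length. The longer TCAAGGTCA, bound by oestrogen-related receptors and containing the AGGTCA hexamer, was in none of the 9 and in 0.423% of all promoters. A direct repeat of the hexamer with 1 base between the copies, bound by PPAR with RXR, was in none of the 9 and in 0.0396% of all. CACGTG was in none of the 9, against 7.15%, and TATAAA in none, against 13.6%. A match is a description of these windows and shows no binding.

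The other 3 dehydrogenases, graded by chain length, had smaller ratios over all cells. Acadl, the long-chain enzyme, was at 36.2 CPM in I173A and 33.4 CPM in WT CD4 SP cells, 52.0 and 47.2 CPM in CD8 SP, and 49.0 and 53.4 CPM in DP. Its ratios were 1.09 (0.971 to 1.21), 1.10 (1.01 to 1.21) and 0.918 (0.806 to 1.04), with only the CD8 SP interval away from 1. Leaving out the cell cycle clusters, Acadl in CD8 SP cells was at 47.4 CPM in I173A and 37.4 CPM in WT, a ratio of 1.27, and in DP cells the ratio was 1.01.

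Acadm, the medium-chain enzyme, was at 36.2 CPM in I173A and 33.3 CPM in WT CD4 SP cells, 34.7 and 31.9 CPM in CD8 SP, and 63.4 and 53.8 CPM in DP. The ratio was 1.18 (1.05 to 1.33) in DP, and 1.09 in both SP gates with intervals that include 1. Its CD8 SP ratio was 0.987 without the cell cycle clusters. Acads, the short-chain enzyme, was at 46.0 CPM in I173A and 40.6 CPM in WT CD4 SP cells, 44.7 and 38.1 CPM in CD8 SP, and 69.6 and 60.4 CPM in DP. Its 3 ratios, 1.13, 1.17 (1.06 to 1.29) and 1.15 (1.03 to 1.29), all had intervals above 1, but in DP cells the ratio was 0.961 without the cell cycle clusters.

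The trifunctional protein, which hydrates, oxidizes and cleaves long-chain intermediates, had smaller ratios than Acadvl and Acaa2 in each gate. Hadha, its hydratase and dehydrogenase subunit, was at 84.5 CPM in I173A and 78.9 CPM in WT CD4 SP cells, 85.1 and 79.0 CPM in CD8 SP, and 104.7 and 102.7 CPM in DP. Hadhb, its thiolase subunit, was at 100.9 CPM in I173A and 92.3 CPM in WT CD4 SP cells, 102.4 and 92.2 CPM in CD8 SP, and 118.7 and 114.6 CPM in DP. The ratios of Hadha and Hadhb were close to each other: 1.02 (0.932 to 1.12) and 1.04 (0.951 to 1.13) in DP cells, 1.07 (0.997 to 1.15) and 1.09 (1.02 to 1.17) for CD4 SP cells, and 1.08 (1.01 to 1.16) and 1.11 (1.04 to 1.18) for CD8 SP cells. The intervals of Hadhb in both SP gates and of Hadha in CD8 SP thus lay above 1. In DP both intervals include 1, and both ratios lay under 1 when totals were rescaled.

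Hadha and Hadhb lie head to head on chromosome 5, with RefSeq starts 273 bases apart on opposite strands. The stretch common to both promoter windows is shown because these subunits had like ratios in every gate. Acadl and Acadm were as close to each other in both SP gates, and shared control of Hadha and Hadhb was not tested. The common stretch covers 228 bases, chr5:30155003-30155230, and is given on the plus strand, the strand of Hadhb. It holds 1 GC box (GGGCGG on either strand), in capitals.
Hadha and Hadhb: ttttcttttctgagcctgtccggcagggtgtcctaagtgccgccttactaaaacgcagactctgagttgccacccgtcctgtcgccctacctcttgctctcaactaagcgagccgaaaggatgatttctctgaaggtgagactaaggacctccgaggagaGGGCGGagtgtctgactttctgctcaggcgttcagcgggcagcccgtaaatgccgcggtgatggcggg
The GC box was in the windows of 6 of the 9 genes described, against 35.7% of all promoters. The shared box shown above is counted for both Hadha and Hadhb, and the Hadha window holds no other.

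Acaa2, the thiolase that ends a round for medium and short chains, was the other gene past the fold in more than 1 gate. It was at 129.1 CPM in I173A and 98.2 CPM in WT CD4 SP cells, 128.0 and 109.3 CPM in CD8 SP, and 171.5 and 129.2 CPM in DP. The ratios were 1.32 (1.24 to 1.40), 1.17 (1.11 to 1.24) and 1.33 (1.23 to 1.43), with every interval above 1. Without the cell cycle clusters the DP ratio was 1.13, from 187.4 CPM in I173A and 165.3 CPM in WT, while the CD4 SP ratio was 1.33. Per 100 cells Acaa2 gave 81.3 UMIs in I173A and 64.8 in WT CD4 SP cells, 54.9 and 51.9 in the DP gate, and 78.6 and 81.6 in the CD8 SP gate. In that last gate the order turned with the cell cycle clusters left out, at 73.5 in I173A and 68.0 in WT.

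Acadvl and Acaa2, picked here after their values were seen, made up much of the difference in the sum. The sum was 88.9 CPM higher in I173A CD4 SP cells, and Acadvl and Acaa2 together held 54.9% of that. They held 61.1% of the 50.1 CPM in CD8 SP and 77.2% of the 97.2 CPM in DP cells. The other 8 genes summed had ratios of 1.096, 1.042 and 1.040.

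The electron carriers did not move as a block. Etfa, the alpha subunit of electron transfer flavoprotein, was at 84.8 CPM in I173A and 79.1 CPM in WT CD4 SP cells, 96.7 and 109.6 CPM in CD8 SP, and 87.5 and 96.8 CPM in DP. Its ratios were 1.07 (0.997 to 1.15), 0.883 (0.830 to 0.940) and 0.904 (0.821 to 0.995), the only intervals below 1 among the 10 genes. They were 1.06, 1.01 and 1.14 without the cell cycle clusters. Etfb, the beta subunit, was at 41.6 CPM in I173A and 35.8 CPM in WT CD4 SP cells, 36.4 and 40.1 CPM in CD8 SP, and 39.0 and 34.8 CPM in DP. Its ratios were 1.16 (1.05 to 1.29), 0.906 (0.817 to 1.003) and 1.12 (0.964 to 1.31), and without the cell cycle clusters 1.17, 1.01 and 1.32, the last from 37.2 CPM in I173A and 28.1 CPM in WT DP cells. In CD8 SP cells both subunits were therefore lower in I173A over all cells and level without the cell cycle clusters.

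Etfdh, the inner membrane oxidoreductase that takes electrons from the flavoprotein, was at 29.6 CPM in I173A and 26.3 CPM in WT CD4 SP cells, 31.3 and 25.7 CPM in CD8 SP, and 52.7 and 46.0 CPM in DP. Its ratios were 1.13 (0.994 to 1.27), 1.22 (1.08 to 1.37) and 1.14 (1.003 to 1.30). Without the cell cycle clusters they were 1.13, 1.24 and 1.10 (0.944 to 1.29), the last with an interval that includes 1. The DP ratio was 0.949 without cells with a cycling marker UMI. The promoter of Etfdh is shown because it alone of the 9 held the NRF1 element, found in 0.971% of all promoters. NRF1 is a transcription factor of many genes for mitochondrial proteins. The window is chr3:79628718-79629017 on the minus strand of GRCm38.p6, with the 10 letters searched as that element, 128 bases before the start, in capitals.
Etfdh: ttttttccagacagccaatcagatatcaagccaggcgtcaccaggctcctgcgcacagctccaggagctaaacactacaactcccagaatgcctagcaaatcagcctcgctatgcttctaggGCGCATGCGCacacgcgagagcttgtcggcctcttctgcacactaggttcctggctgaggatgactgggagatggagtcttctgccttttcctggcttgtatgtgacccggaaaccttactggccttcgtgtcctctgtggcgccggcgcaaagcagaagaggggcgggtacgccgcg
CCAAT was in Etfa, Etfb and Etfdh of the 9, against 37.4% of all promoters. In the RefSeq annotation Etfdh overlaps Ppid, Etfb overlaps Cldnd2, and Acadl overlaps Gm15793, so counts of these 3 genes may hold reads of a neighbour.

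Without the cell cycle clusters the counts past the fold were 2 genes in CD4 SP (Acadvl and Acaa2, background 5.23%), 1 in CD8 SP (Acadl, 4.22%) and 2 in DP (Acadvl and Etfb, 8.12%). Acadvl in CD4 SP and DP cells and Acaa2 in CD4 SP cells were past it both ways. Ratios above 1 were then found for 10, 9 and 8 of the 10 genes, against 61.7%, 57.8% and 54.1% of all genes.

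In the DP and CD8 SP gates the cell cycle clusters themselves had another makeup of the pathway in both genotypes. In this comparison, chosen after the clusters were seen, the 5 clusters (8, 11, 12, 16 and 19) were set against all other cells of the same gate and genotype, and no member was among the 2000 variable genes used for clustering. Cluster 12 carried 4 cycling markers but was led by Gzma and Gpr25. Clusters 8 and 12 also held DP cells, and each had 6 of 10 markers of rearranging DP cells raised. In the CD8 SP gate they held 200 and 101 WT cells but 38 and 33 I173A cells. Cluster 11, with 0 of those markers raised, held 134 WT and 117 I173A cells there. Rag1, one of those markers, was at 26.7 CPM in WT and 7.49 CPM in I173A CD8 SP cells. The part of such cells in the CD8 SP ratios was not tested. In DP cells Etfa was at 157.2 CPM in cell cycle clusters and 75.3 CPM in the other I173A cells, a ratio of 2.09 (1.77 to 2.46). Among WT DP cells the levels were 141.0 and 66.2 CPM, or 2.13-fold (1.87 to 2.43). Etfa was also higher in cell cycle clusters of the SP gates, by 1.56 in I173A and 1.73 in WT CD8 SP cells. In the CD4 SP gate, with 50 I173A and 58 WT cells in those clusters, it was at 133.0 against 82.2 CPM in I173A and 115.5 against 77.2 CPM in WT.

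Acadl was higher there as well, at 92.2 against 41.4 CPM in I173A DP cells (2.23, 1.79 to 2.76) and 71.3 against 40.9 CPM in WT DP cells (1.75, 1.47 to 2.08). Acaa2 went the other way, at 80.5 against 187.4 CPM in I173A DP cells (0.430) and 77.1 against 165.3 CPM in WT DP cells (0.467). Acadvl did too, at 39.5 against 81.7 CPM in I173A DP cells (0.483) and 29.9 against 51.6 CPM in WT DP cells (0.579). Acadm had ratios of 0.485 in I173A and 0.621 in WT DP cells, and Acads 0.561 and 0.460. Hadha stayed level, at 0.981 in I173A and 0.980 in WT. The 5 genes whose interval between the genotypes lay above 1 in DP cells, Acadvl, Acadm, Acads, Acaa2 and Etfdh (0.915 in I173A and 0.881 in WT), all had ratios under 1 here, as did Hadhb (0.790 and 0.820). A ratio under 1 was usual in this comparison, as 33.0% of all genes in I173A and 33.8% in WT DP cells were above 1. The median log2 ratio over all genes was -0.37 and -0.33. The intervals of Etfdh, 0.690 to 1.196 in I173A and 0.727 to 1.066 in WT, include 1. The clusters held 14.9% of the UMIs in I173A and 41.0% in WT DP cells, and 17.7% and 35.7% in CD8 SP cells. Past the fold in either direction were 8 of the 10 genes in I173A and 7 in WT DP cells. That is near the background of 74.2% and 72.4% of all genes. In CD8 SP cells 7 and 6 were, against 58.6% and 66.5%. In the CD4 SP gate 1 in I173A and 4 in WT were, against 63.0% and 62.6%. Acaa2 had CD4 SP ratios of 0.850 and 0.995 and Acadvl of 0.903 and 0.801, with intervals that include 1.

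**Figure D3:**
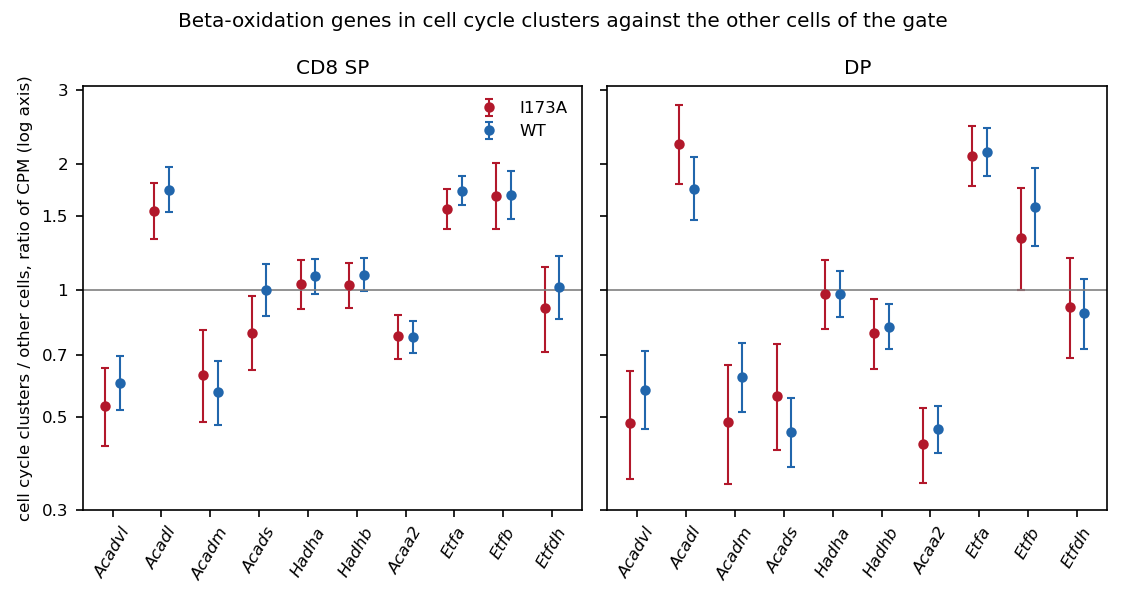
Ratio of CPM in the cell cycle clusters over the other cells of the same gate for each gene, in I173A and WT cells, on a log axis with exact 95% intervals. Etfa, Acadl and Etfb lie above 1 and Acadvl and Acaa2 below 1 in DP and CD8 SP cells of both genotypes.

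The sum of the 10 genes was higher in DP than in SP cells of both genotypes, but relative to the median gene it was lower in DP than in CD8 SP cells, at -0.13 in I173A and -0.16 in WT on the log2 scale. A gate is 1 library, so gate and library cannot be told apart, and the median gene was itself higher in DP, by 0.29 (against CD4 SP) and 0.45 (against CD8 SP) on the log2 scale in I173A and by 0.28 and 0.42 in WT. The summed DP level was 1.252 times that of CD4 SP and 1.248 times that of CD8 SP cells in I173A, and 1.277 and 1.192 times in WT. Of the 10 genes, 5 were higher by the fold used for counting in DP than in CD4 SP cells of I173A and 6 of WT, against 47.7% and 46.3% of all genes. Against CD8 SP cells, 5 were in I173A and 4 in WT, against 57.8% and 56.2% of all genes. These counts are near the background.

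Acadm, Acads and Etfdh were above the median gene in all 4 of these comparisons, and none of the other 7 was. Etfdh in DP cells was at 1.78 times its CD4 SP level in I173A and 1.75 times in WT, and at 1.68 and 1.79 times its CD8 SP level. Acadm was at 1.75 times its CD4 SP level in I173A and 1.61 times in WT, and at 1.83 and 1.69 times its CD8 SP level. Acads was at 1.51 times its CD4 SP level in I173A and 1.49 times in WT, and at 1.56 and 1.58 times its CD8 SP level. Acadvl compared differently in each genotype. It was level between DP and CD4 SP cells in I173A, at 1.00, and lower in DP in WT, at 0.744, or 0.890 (0.782 to 1.011) without the cell cycle clusters, no longer past the fold. It was at 1.37 times its CD8 SP level in I173A and level in WT, at 0.992. The difference between the genotypes here was not tested.

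Cells of all libraries, those of Hashtag 5 included, were clustered together and pooled in the cluster levels. Of 21 clusters, 20 had at least 100 cells. Over these, the sum of the 10 genes ran from 435.6 CPM in cluster 18 to 848.8 CPM in cluster 5. For the 10 members summed, clusters 1 and 5, made up mostly of DP cells, stood highest, with 830.4 CPM in cluster 1. Acaa2 was at 185.7 CPM in cluster 1 and 188.7 CPM in cluster 5, Acads at 79.3 and 91.5 CPM, and Acadm at 75.8 and 64.2 CPM. Clusters 6, 15 and 18 had median UMI counts of 1576, 1629.5 and 1144 per cell and median mitochondrial shares of 2.89%, 4.59% and 4.87%. Cluster 16, which is among the cell cycle clusters, had a median of 3552 UMIs and the highest median mitochondrial share, 5.04%. In clusters 6, 15 and 16 Etfb was at 7.0, 5.1 and 7.8 CPM, its lowest levels, while Etfdh was at 70.1, 62.9 and 66.5 CPM, its highest. The part of RNA quality in this contrast was not tested.

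**Figure D4:**
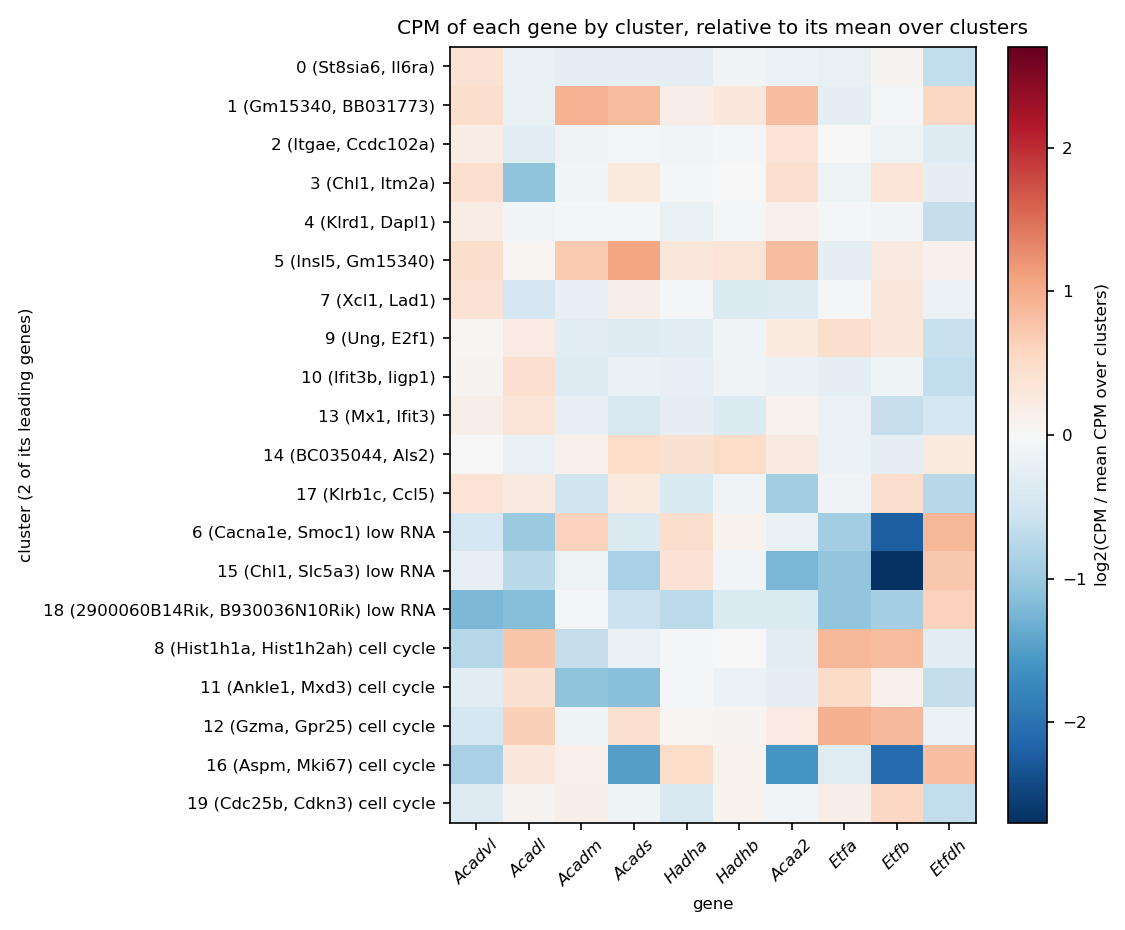
Level of each beta-oxidation gene in the 20 clusters with at least 100 cells, as log2 of its CPM over its mean CPM across clusters, with 2 leading genes naming each cluster. Cells of Hashtag 5 are included. Acadm, Acads and Acaa2 are high in clusters 1 and 5, Etfa in clusters 8 and 12, and Etfb is lowest in clusters 6, 15 and 16.

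Within CD4 SP cells, cluster 0, high in the emigration receptor gene S1pr1, was set against cluster 3, high in Itm2a, Cd40lg and Ccr4, a pair also chosen after the clusters were seen. Acadl was at 42.4 CPM in cluster 0 and 23.0 CPM in cluster 3 of I173A (1.84), and at 38.7 and 17.7 CPM in WT (2.18). Acaa2 had ratios of 0.670 in I173A and 0.636 in WT, Acads 0.784 and 0.734, and Etfdh 0.688 and 0.769. Acadl thus ran against these 3 genes in both genotypes. The median gene was itself lower in cluster 0, at -0.185 in I173A and -0.184 in WT on the log2 scale. Of all genes, 33.3% in I173A and 32.3% in WT were lower there by the fold used for counting.

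The genotype ratio was then read inside clusters, for each gate with at least 50 cells of both genotypes, which gave 17 comparisons. These split the same 1 sample per genotype and gate, so they are not replicates of each other. The share of all genes above 1 inside clusters was not computed. For the 10 members summed, the ratio was above 1 in 16 of 17, with 9 intervals above 1 and 0 below, and it ran from 0.972 to 1.20. Acadvl and Acaa2 were each above 1 in 15 of 17, with 5 intervals above 1 and 0 below. Acadvl was at 88.9 CPM in I173A and 51.9 CPM in WT cells of cluster 1 in the DP gate, a ratio of 1.71. In cluster 3 of the CD4 SP gate it was at 84.7 CPM in I173A and 53.2 CPM in WT, a ratio of 1.59. Acadm was above 1 in 7 of 17 comparisons, with 1 interval above 1.

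Across the 20 clusters some members ran together. As a description, with clusters that share libraries and differ in depth, Pearson's r of log2(CPM + 1) was 0.78 between Etfa and Etfb, 0.75 between Etfa and Acadl, 0.75 between Acads and Acaa2, and -0.73 between Etfb and Etfdh. Of 6990 other genes with a mean of 20 CPM or more, the 5 most like the sum were Hmox2 (0.92), Vamp7 (0.92), Vdac1 (0.90), Timm22 (0.90) and Aamdc (0.89).

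The steps around the 10 enzymes were read from lists of related genes, counting members with a mean of 5 CPM or more. Counts of ratios above 1 in these lists stand beside 61.9%, 55.3% and 62.7% of all genes in CD4 SP, CD8 SP and DP cells. Without the cell cycle clusters those shares were 61.7%, 57.8% and 54.1%. The carnitine shuttle, which brings long-chain acyl groups into mitochondria, had ratios above 1 for 5 of 5, 4 of 4 and 4 of 5 measured genes in CD4 SP, CD8 SP and DP cells. Cpt1a, the outer membrane transferase that limits entry, was at 40.1 CPM in I173A and 8.7 CPM in WT CD4 SP cells, 28.6 and 10.0 CPM in CD8 SP, and 52.9 and 11.3 CPM in DP, with ratios of 4.60 (3.89 to 5.45), 2.85 (2.43 to 3.35) and 4.69 (3.82 to 5.82). Slc25a20, the carnitine-acylcarnitine carrier, was at 35.5 CPM in I173A and 25.1 CPM in WT CD4 SP cells, 29.4 and 18.7 CPM in CD8 SP, and 42.0 and 20.9 CPM in DP, with ratios of 1.42, 1.57 and 2.01. Cpt2, the inner membrane transferase, was level at 1.01, 1.05 and 1.01. Crat, the carnitine acetyltransferase, was the gene under 1, at 9.4 CPM in I173A and 13.8 CPM in WT DP cells (0.676), while in CD4 SP cells it was at 6.0 CPM in I173A and 4.2 CPM in WT (1.41). Cpt1a and Slc25a20 thus had larger ratios than any of the 10 enzymes in each gate.

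Acyl-CoA synthetases, which activate fatty acids or acetate before oxidation, were not shifted one way. Ratios above 1 were found for 5 of 8, 4 of 7 and 4 of 8 measured members in CD4 SP, CD8 SP and DP cells, with a median log2 ratio of -0.10 in DP. Acsl3, a long-chain synthetase, was at 7.8 CPM in I173A and 17.9 CPM in WT CD8 SP cells (0.435) and at 40.1 and 52.2 CPM in DP (0.768). Acss2, the cytosolic acetyl-CoA synthetase, was at 39.5 CPM in I173A and 30.2 CPM in WT CD8 SP cells (1.31) and at 58.3 and 42.1 CPM in DP (1.39). None of these 4 ratios was past the fold without the cell cycle clusters, where Acsl3 was at 0.999 and 0.859 and Acss2 at 1.10 and 1.13.

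Other dehydrogenases that feed the flavoprotein, and genes that act on it, were above 1 in 6 of 7, 7 of 7 and 6 of 6 measured members in CD4 SP, CD8 SP and DP cells, with 2, 2 and 5 higher by the fold used for counting, whose share of all genes is given above. The counts above 1 were 6, 5 and 5 without the cell cycle clusters, with 2, 1 and 1 past the fold. Acadsb, the short and branched-chain dehydrogenase, had ratios of 1.32, 1.28 and 1.32, and Etfbkmt, a methyltransferase of Etfb, of 1.35, 1.31 and 1.32. In the CD8 SP and DP gates these were 1.18 and 1.18 for Acadsb and 1.12 and 1.11 for Etfbkmt once the cell cycle clusters were left out, under the fold. Of 12 genes for auxiliary and short-chain steps, 9, 6 and 10 were above 1. Hadh, the dehydrogenase of shorter hydroxyacyl chains, was at 83.8 CPM in I173A and 64.2 CPM in WT DP cells, a ratio of 1.31, and at 1.17 in CD4 SP and 1.05 in CD8 SP cells. Its DP ratio was 1.18 outside the cell cycle clusters. There 0 genes of this list were higher by the fold in DP cells, against 4 over all cells. In each case 1 gene of the list was lower by the fold.

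Peroxisomal beta-oxidation, which shortens very long chains outside mitochondria, was above 1 in 9 of 11, 10 of 11 and 10 of 12 measured genes, with 0, 4 and 5 higher by that fold, and in 7, 9 and 9 without the cell cycle clusters, with 0, 0 and 1 past the fold. Abcd4 had ratios of 1.23, 1.30 and 1.37, and Acox3, an acyl-CoA oxidase, of 1.00, 1.33 and 1.46. Leaving out those clusters, Abcd4 was at 1.19 in the CD8 SP gate and 1.29 in the DP gate, and Acox3 short of the fold in both, so that Abcd4 in DP cells was the one gene past it. The tricarboxylic acid cycle, which takes up acetyl-CoA, was not shifted this way: 9, 1 and 4 of 18 genes were above 1, and 10, 7 and 8 without the cell cycle clusters. Fh1, fumarate hydratase, was at 51.5 CPM in I173A and 71.4 CPM in WT CD8 SP cells, and at 45.2 and 61.1 CPM in DP. Those ratios, 0.722 and 0.739, were 0.995 and 0.880 without the clusters and no longer past the fold. Nuclear genes of complexes I and III, cytochrome c and coenzyme Q synthesis were above 1 in 8, 1 and 5 of 16, and 7, 8 and 7 without those clusters. Cycs, cytochrome c, had ratios of 0.915, 0.717 and 0.795, and outside the cell cycle clusters of 0.917, 0.876 and 0.916, under the fold in each gate.

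**Figure D5:**
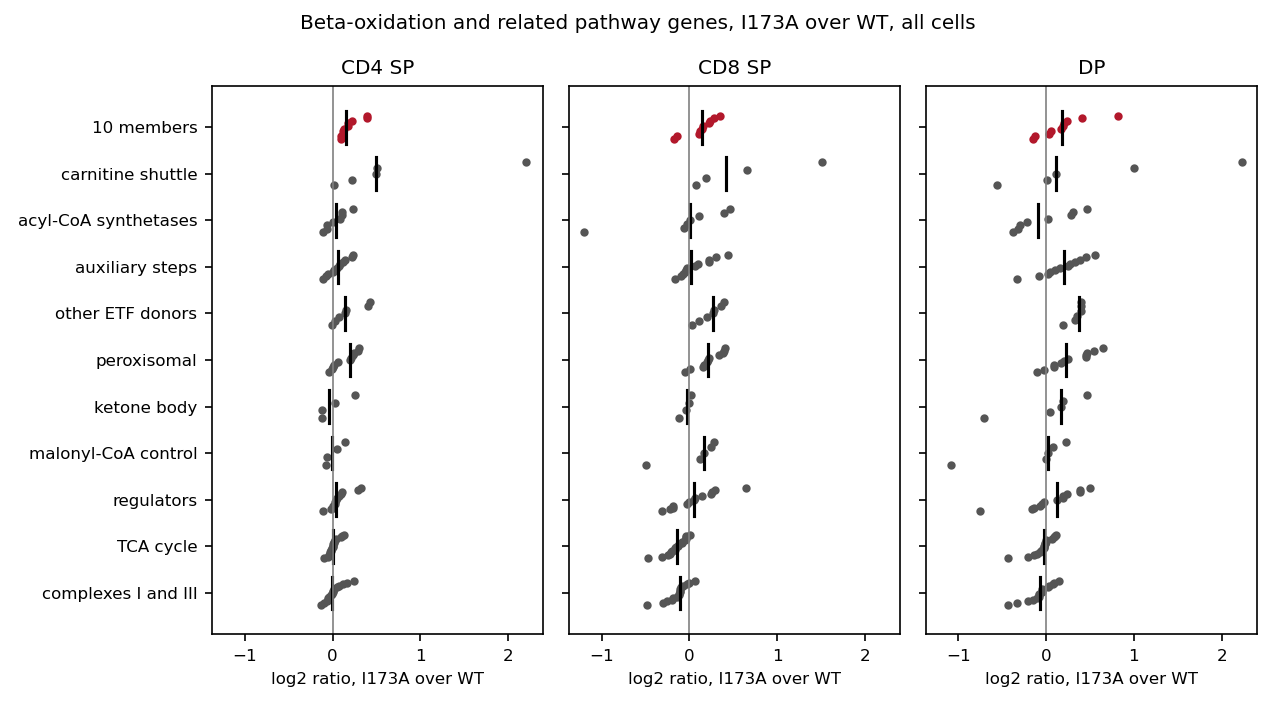
The log2 ratio of I173A over WT for each of the 10 beta-oxidation genes and each gene of the related lists (points), by gate, with the median of each list as a black line. The median of the carnitine shuttle is highest in both SP gates, at 0.49 for CD4 SP and 0.42 for CD8 SP cells, and that of the tricarboxylic acid cycle is lowest in CD8 SP cells, at -0.14.

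Malonyl-CoA, the product of acetyl-CoA carboxylase, blocks Cpt1a. Acaca, which encodes the cytosolic carboxylase, was at 10.3 CPM in I173A and 14.5 CPM in WT CD8 SP cells and at 4.3 and 9.1 CPM in DP, ratios of 0.712 and 0.470. Outside the cell cycle clusters its CD8 SP ratio was 0.867, short of the fold, and its DP levels were 3.0 CPM in I173A and 2.7 CPM in WT, too low to be counted. Among ketone body genes, Oxct1, which activates acetoacetate for use, was at 35.1 CPM in I173A and 57.5 CPM in WT DP cells, a ratio of 0.610, or 0.832 and short of the fold without those clusters. Of 13 regulators measured, 11, 7 and 7 were above 1, against 61.9%, 55.3% and 62.7% of all genes. Their median log2 ratio was 0.034, 0.056 and 0.127, beside 0.036, 0.032 and 0.081 over all genes. Lpin1, a phosphatidate phosphatase and transcriptional coregulator, was at 36.3 CPM in I173A and 29.1 CPM in WT CD4 SP cells, with ratios of 1.56 in CD8 SP and 1.41 in DP cells. These were 1.29 and 1.11 without the cell cycle clusters, the DP ratio then under the fold. Ppargc1b, a coactivator of mitochondrial genes, was at 7.7 CPM in I173A and 13.0 CPM in WT DP cells (0.593), and its ratio was 0.509 without those clusters. Ppara, Pparg and Ppargc1a, the regulators of beta-oxidation best known from liver and fat and named here after their counts were seen, had at most 3 UMIs in any group.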

How the data were processed

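The authors deposited raw UMI counts per gene and barcode for 3 RNA libraries (CD4 SP, CD8 SP and DP thymocytes), with hashtag counts in the same matrices. The submitters' processing notes name Cell Ranger 6.0.1 and the build GRCm38 (mm10). The chemistry reads 5′ ends, so CPM were not compared between genes. T cell receptor tables were not used here.

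The members and all gene lists were chosen with earlier results of these data known. Hashtags were called at 10 or more counts that were also 4 or more times those of each other hashtag. Barcodes with several hashtags were left out, so doublets of 1 genotype remain. Cells under 500 genes or over 10% mitochondrial UMIs were dropped. CPM are summed UMIs over all UMIs of the gate and genotype, with exact Poisson intervals and exact conditional intervals of ratios (SciPy 1.17.1, 95%), checked on simulated counts. A gene was counted as past the fold at a ratio of 0.8 or less, or the inverse of 0.8 or more, with a mean of 5 CPM or more. Since each genotype is 1 sample per gate, no test was run.

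Cells of all libraries, those of hashtag 5 included, entered a joint Leiden clustering in Scanpy 1.11.5 with leidenalg 0.10.2 (10000 UMIs per cell, 2000 variable genes, 30 components, 15 neighbours, resolution 1). Clusters are called by number and leading genes. The 5 cell cycle clusters had at least 3 of 10 cycling markers raised. Genes named beside the members were Cpt1a, up to 2 genes at either end of the ratios in each related list and gate (at least 100 UMIs), and the 5 most like the sum. Not every gene that this rule names is given in the text, and 1 or more of them are not reported here. Promoters and loci come from RefSeq on GRCm38.p6. Each genotype ratio was recomputed under 12 alternative settings of cells, hashtags, scaling and clusters.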

Additional observations from a re-analysis of the deposited data

Results flagged for a closer look

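Acadl had ratios of I173A over WT of 1.0853 in CD4 SP and 1.1029 in CD8 SP cells but 0.91757 in DP cells, so that the direction differed between the gates. Etfa had 1.0717 in CD4 SP cells, against 0.883 in CD8 SP and 0.90388 in DP cells. Etfb had 1.1631 in CD4 SP and 1.1221 in DP cells, against 0.9055 in CD8 SP cells. These differences between gates were not tested, since each gate has 1 sample per genotype. Cells with hashtag 5, which the labels tie to no genotype, had Acadl at 53.349 CPM in the CD8 SP gate, above the 47.2 CPM of WT cells there.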

How the results depend on the processing

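No paired analysis was possible because each genotype has 1 sample per gate. Over 13 settings, the main one included, the ratio of the 10 genes summed lay between 1.08 and 1.14 in DP, between 1.07 and 1.13 in CD8 SP, and between 1.13 and 1.16 in CD4 SP cells. That of Acadvl lay between 1.57 and 1.80, 1.16 and 1.28, and 1.28 and 1.33, and that of Acaa2 between 1.12 and 1.35, 1.11 and 1.18, and 1.28 and 1.33.

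The log2 ratio of the sum in CD8 SP cells, 0.11, was 0.15 with each cell weighted alike, 0.16 without the cell cycle clusters, 0.175 without cells with a cycling marker UMI, 0.17 without cluster 9 as well (added after seeing the data), and 0.16 with equal cluster shares, where 0 members were past the fold. In DP cells it was 0.11 with totals rescaled to a median gene ratio of 1. Rescaling put the log2 ratio of the summed DP level over CD4 SP at 0.033 in I173A and 0.072 in WT, and over CD8 SP at -0.13 in I173A and -0.16 in WT. It also put single genes below 0 that were above it: over CD4 SP Acadvl, Etfa and Hadhb in I173A, and over CD8 SP Acaa2, Hadha and Hadhb in both genotypes, Etfb in I173A and Acadl in WT. Of these only Acaa2 in I173A, at -0.028, and Hadha in WT, at -0.036, had been past the fold. Without the cell cycle clusters the WT sum of DP was 0.42 over CD4 SP and 0.37 over CD8 SP. The cause of these shifts was not tested.

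In CD4 SP, CD8 SP and DP cells 654, 1962 and 2538 of all genes were past the fold, 197, 1090 and 1468 with a mean of 20 CPM or more, and 3578, 5565 and 5313 with no minimum, where more genes are counted at low depth. Of the related genes, 4 were past the fold higher and 0 lower in CD8 SP without the cell cycle clusters, and 6 higher and 4 lower in DP. The lowest cluster sum was 470.1 CPM when members and related genes were left out of the clustering. Of the values for single genes, 348 moved by less than their interval, 90 by more, and 2 that had been past the fold changed side. Of the values for sums, counts and cluster extremes, 124 stayed within the limit set for their kind and 24 moved past it. Depth limits DP cells most, as the shallowest groups, where the interval of Etfb ran from 0.964 to 1.31.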

Other observations

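Cells with hashtag 5, which the labels place in no group, numbered 2829, 2745 and 2765 for the CD4 SP, CD8 SP and DP gates. Their sum of the 10 genes was 572.7, 623.0 and 743.1 CPM. Acadvl was at 56.1, 44.6 and 38.5 CPM in them, and Acaa2 at 97.3, 106.3 and 134.7 CPM.

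In DP cells, cluster 14, high in the early response genes Egr1 and Egr2, was set against cluster 1, a pair chosen after the clusters were seen. Acaa2 had a ratio of 0.798 in I173A and 0.508 in WT, and the sum of the 10 genes 0.903 and 0.895. The median log2 ratio over all genes was -0.087 in I173A and -0.056 in WT.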
